A study of Mus musculus with 6 samples.

Results

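The genes described here mainly encode the mitochondrial machinery that burns fatty acids and ketone bodies, with some for isoleucine and valine breakdown. They were chosen as a list of 30 gene symbols by function, and all 30 had a row and at least 1 count among the 26214 genes in the deposited count files. Gene expression was read by RNA-seq from mouse brown preadipocytes of an immortalized culture, differentiated in culture for 7 days with insulin, triiodothyronine and, at first, isobutylmethylxanthine, dexamethasone and indomethacin. Cells then received 100 nM rotenone, which blocks complex I of the respiratory chain, or the solvent DMSO, for 16 h. The labels name no genetic change in either group and do not say whether the culture is a clone. Each group had 3 deposited files. The rotenone files held the same count for every gene, a difference below sampling noise, and entered as 1 sample, so 3 DMSO libraries were compared with 1 rotenone library.

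Long-chain fatty acids enter mitochondria through the carnitine shuttle: an outer-membrane transferase (CPT1) joins them to carnitine, a carrier brings the product across the inner membrane, and CPT2 returns the acyl group to coenzyme A. Beta-oxidation then shortens the chain in repeated rounds of oxidation, hydration, a further oxidation and thiolysis, with electrons passed to FAD and NAD+ and from there to the respiratory chain. In brown fat this pathway fuels heat production, many of its genes are known targets of the PPAR nuclear receptors, and ketone bodies are used through a short route that also ends in acetyl-CoA.

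With rotenone, 13 of the 30 genes fell and 7 rose, and the other 10 did not pass the test (edgeR's quasi-likelihood test, Benjamini-Hochberg adjusted p under 0.05 over 14709 genes). The falls were the larger changes. Cpt2, Hadhb, Acad12 and Acss1 fell by at least 2-fold, and no gene of the list that passed the test rose by as much as 1.5-fold. All 5 listed acyl-CoA dehydrogenase family members outside the straight-chain enzymes fell. Of the listed enzymes of the core cycle, only Echs1, Hadh and Hsd17b10 passed the test as higher, and their rises were slight. Set against genes of similar length and base composition, their log2 fold changes were 0.09, 0.04 and -0.02. None of these calls held with an assumed coefficient of variation of 20%. Those of Echs1 and Hadh were also lost when scaling by library size only.

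Across all genes tested, 27.6% were called higher and 28.5% lower, against 23.3% and 43.3% of the 30 genes. Their median log2 fold change was -0.12, beside -0.04 for all genes. The spread in this test came from the DMSO libraries alone, with a biological coefficient of variation of 6.9%. With a coefficient of variation of 20% assumed, Cpt2, Hadhb, Acad12 and Acss1 were called lower (4 genes), where 14.0% of all genes were. The 1 gene called higher, where 9.57% of all genes were, was Bdh1, which passed the filter on low counts only through the rotenone library, so that nothing is read from its call. Scaling by library size only gave 3 higher and 17 lower (22.1% and 35.0% of all genes) and moved the median of all genes to -0.16. The calls of Cpt1a, Echs1, Hadh and Oxct1 were lost there, and Decr1, Acsf2, Acsf3 and Acat1 were called lower. The length and GC correction, which subtracts from a gene's log2 fold change the median of genes of like transcript length and GC content and gives no test, is cited where it moved a value. Levels below are CPM, counts scaled to library size after TMM, a method that centres the bulk of genes.

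**Figure D1:**
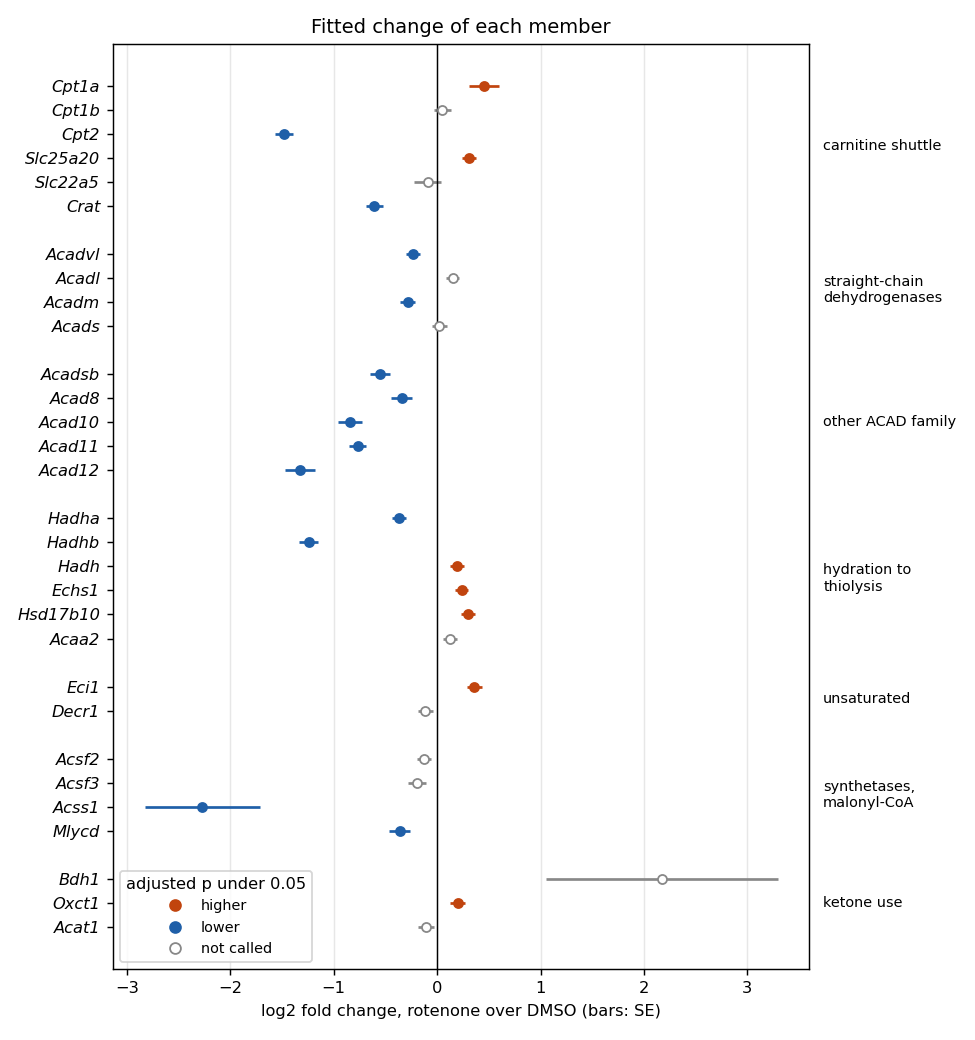
Log2 fold change of each of the 30 genes (x axis, rotenone over DMSO, bars show the SE), grouped by role, filled where the adjusted p was under 0.05. The 7 called rises lie between 0.19 and 0.45, while the 13 called falls reach from -0.23 to -2.27.

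In the plot of levels by library, the DMSO libraries of a gene lay close together. Leaving out Bdh1 and Acss1, which had few counts, the DMSO coefficient of variation ran from 0.668% to 11.7% with a median of 5.13%. DMSO replicate 1 was the highest of the 3 DMSO libraries for 25 of the 30 genes. The share over all genes was not computed, so that this count is not read as a trait of the list. The rotenone library lay above all DMSO libraries for 10 genes, below all of them for 17 and within their range for Cpt1b, Slc22a5 and Acads. Over all genes tested, 41.5% lay above and 44.7% below, so that not overlapping with DMSO was usual in this comparison. The list took 1.03%, 0.963% and 0.941% of all counts in DMSO replicates 1, 2 and 3 and 0.785% with rotenone.

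**Figure D2:**
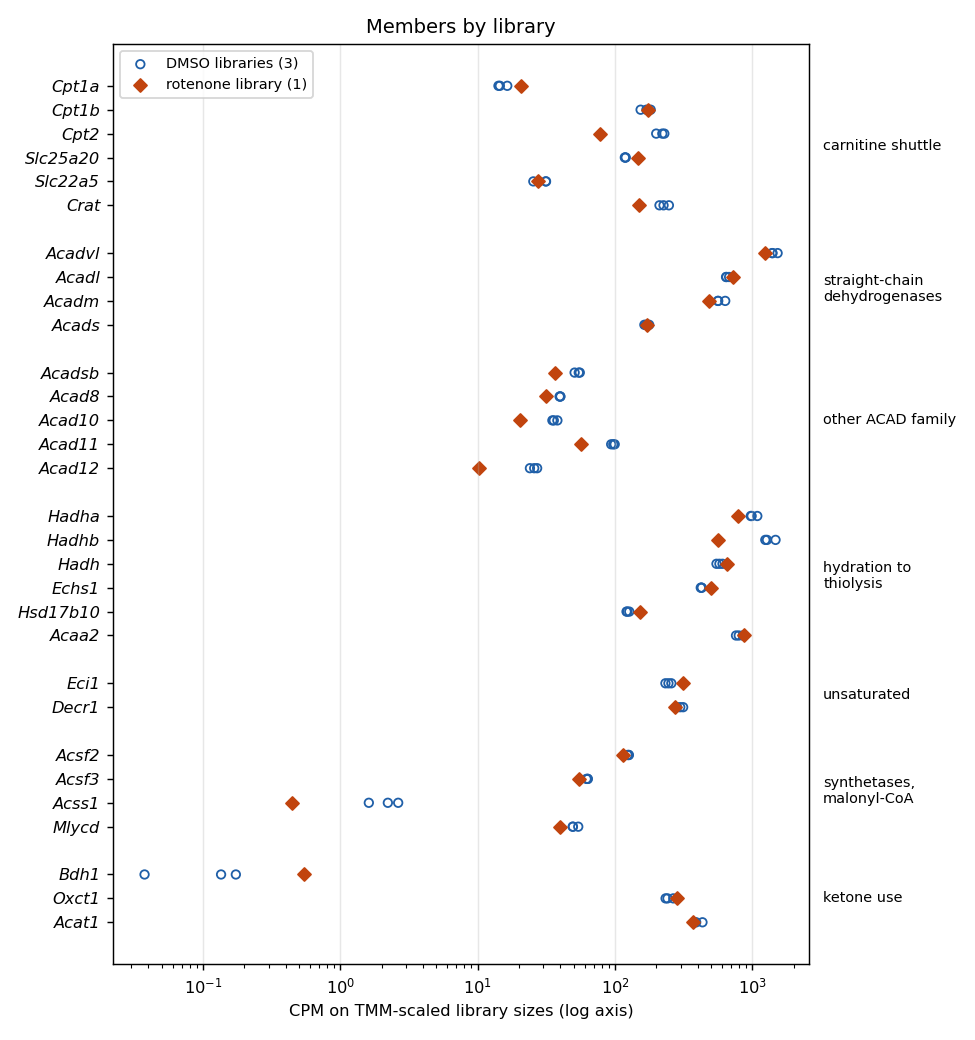
Level of each gene in every library (x axis, CPM on a log axis), with open circles for the 3 DMSO libraries and a diamond for the rotenone library. Acadvl, Hadhb and Hadha are the most abundant in DMSO by their means, and Acss1 and Bdh1 are the only genes below 10 CPM.

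Among the pairs of partners examined, Cpt2 and Slc25a20, and Hadhb and Hadha, moved furthest apart, and the DNA beside their starts is shown for that reason. Hadha (chr5:30118304-30155162, minus strand) and Hadhb (chr5:30155248-30184593, plus strand) are read away from each other, and 85 bases separate their annotated starts. Cpt2 lies at chr4:107903981-107923610 on the minus strand and Slc25a20 at chr9:108662088-108684641 on the plus strand. Gene positions are from GENCODE M21 and the sequences from RefSeq promoter windows, both on GRCm38, and no annotated exon overlaps what is shown. Capitals mark GC boxes (GGGCGG on either strand).
Hadha to Hadhb, chr5:30155163-30155247, plus strand: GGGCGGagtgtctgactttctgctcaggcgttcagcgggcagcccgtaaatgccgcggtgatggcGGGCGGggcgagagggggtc
Upstream of Cpt2, chr4:107923611-107923839, minus strand: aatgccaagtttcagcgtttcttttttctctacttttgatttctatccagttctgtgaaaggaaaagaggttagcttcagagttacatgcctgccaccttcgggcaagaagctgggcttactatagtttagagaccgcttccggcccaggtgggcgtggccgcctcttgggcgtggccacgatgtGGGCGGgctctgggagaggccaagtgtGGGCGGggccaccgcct
Upstream of Slc25a20, chr9:108661886-108662087, plus strand: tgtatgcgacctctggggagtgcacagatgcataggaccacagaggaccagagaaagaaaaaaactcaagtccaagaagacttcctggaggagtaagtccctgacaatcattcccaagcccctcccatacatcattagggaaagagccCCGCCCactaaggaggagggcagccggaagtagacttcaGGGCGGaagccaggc

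Each of these stretches held 2 GC boxes. Promoter windows of 300 bases were at hand for 25 of the 30 genes (26 windows). GC boxes were in 18 of the 26 windows, against 35.7% of 32851 windows of all genes. The TATA box (TATAAA, either strand) was in 0 of the 26 and in 13.6% of all windows, and CCAAT was in 7 of the 26 and in 37.4% of all. The nuclear receptor core motif AGGTCA was in the windows of Acadm, Acadvl, Cpt1a and Echs1, and in 16.3% of all windows. Of these 4 genes, Acadm and Acadvl fell while Cpt1a and Echs1 rose. The exact PPAR:RXR element AGGTCANAGGTCA, which contains that core at both ends, was in no window of the list and in 0.04% of all windows. The motif TCAAGGTCA of the estrogen-related receptors, which also contains the core, was in no window of the list and in 0.42% of all. These windows are short, and matches describe letters only.

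Within the carnitine shuttle, 2 of 6 genes rose and 2 fell, with a median log2 fold change of -0.02 (0.01 after the length and GC correction). Cpt2, the inner-membrane transferase, stood at 229, 221 and 200 CPM in DMSO replicates 1 to 3 and at 77.7 CPM with rotenone. The rotenone library was far below every DMSO library, a log2 fold change of -1.48 ± 0.09 (± SE, adjusted p = 6.23e-11), which is 2.79-fold lower, and the call held with the 20% coefficient of variation. Slc25a20, the carrier that feeds CPT2, went the other way. It stood at 120, 119 and 118 CPM in DMSO and at 147 CPM with rotenone, a rise of 0.31 ± 0.07. That call was lost with the 20% coefficient of variation.

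The count ratio of Cpt2 to Slc25a20, which does not depend on scaling, was 1.91, 1.86 and 1.69 in the DMSO libraries and 0.528 with rotenone. The rotenone library held fewer Cpt2 than Slc25a20 reads, and every DMSO library held more.

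Cpt1a, the liver-type CPT1, stood at 16.4, 14.2 and 14.5 CPM in DMSO and at 20.6 CPM with rotenone, a rise of 0.45 ± 0.14 (adjusted p = 0.0114). Cpt1b, the muscle-type CPT1 that is also the main form in brown fat, stood at 182, 169 and 154 CPM in DMSO and at 174 CPM with rotenone. Its rotenone value fell inside the DMSO range and gave 0.05 ± 0.08. Per kilobase of transcript, Cpt1b exceeded Cpt1a by 16.5, 17.8 and 15.8 times in DMSO and by 12.6 times with rotenone. Cpt1b thus remained the more abundant form in every library.

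How reads were divided between Cpt1b and an overlapping gene is uncertain. The annotated readthrough gene Gm44502 shares 81.4% of the exon bases of Cpt1b on the same strand, and it had more counts than Cpt1b in every library, at ratios of 1.45, 1.47, 1.52 and 1.52 (rotenone last). Its own log2 fold change was 0.09 ± 0.07, also not past the test.

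Crat, which moves acetyl groups between coenzyme A and carnitine, stood at 247, 226 and 211 CPM in DMSO and at 149 CPM with rotenone. It fell by 0.61 ± 0.08 (adjusted p = 4.99e-06), with the rotenone library clear of the controls. Slc22a5, the plasma-membrane carnitine transporter, stood at 31.4, 25.4 and 31.3 CPM in DMSO and at 27.6 CPM with rotenone, which was within the controls' range.

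**Figure D3:**
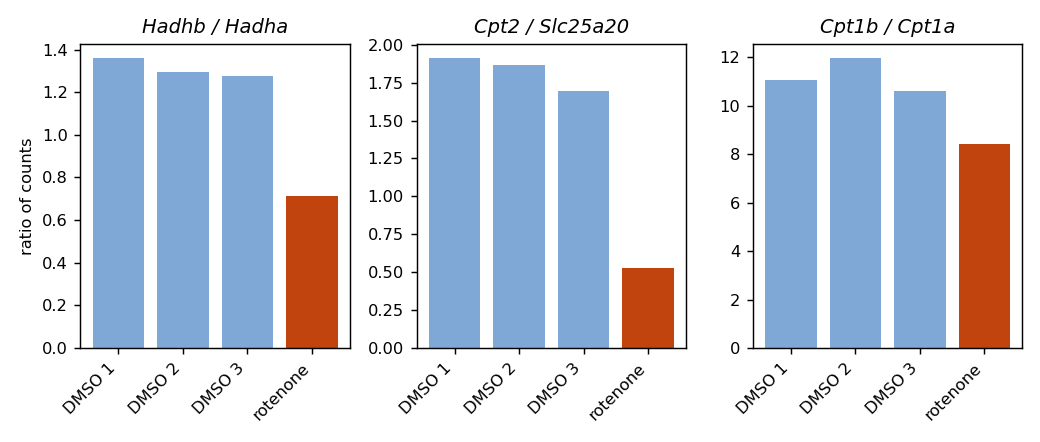
Ratio of raw counts of 3 gene pairs in each library (bars from 0; DMSO replicates 1 to 3, then rotenone). Hadhb to Hadha lies between 1.28 and 1.36 in DMSO and at 0.716 with rotenone, Cpt2 to Slc25a20 between 1.69 and 1.91 and at 0.528, and Cpt1b to Cpt1a between 10.6 and 12.0 and at 8.45.

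The straight-chain acyl-CoA dehydrogenases carry out the first oxidation on chains of different length. Of these 4, Acadvl and Acadm fell, Acadl and Acads did not pass, and the median was -0.11. Acadvl, for very long chains, stood at 1528, 1403 and 1394 CPM in DMSO and at 1227 CPM with rotenone, a log2 fold change of -0.23 ± 0.07. Acadm, for medium chains, stood at 635, 565 and 561 CPM in DMSO and at 481 CPM with rotenone, a log2 fold change of -0.29 ± 0.07. In both genes the rotenone library was below all controls, but by less than 1.5-fold. Acadl, for long chains, had 678, 644 and 648 CPM in DMSO and 728 CPM with rotenone and just missed the threshold (0.15 ± 0.06, adjusted p = 0.0536). It passed as higher with DESeq2, with median-ratio scaling and without DMSO replicate 1, but gave 0.03 with library size scaling and -0.02 after the length and GC correction. Acads, for short chains, had 177, 168 and 164 CPM in DMSO and 172 CPM with rotenone, inside the controls. Of the exon bases of Acadvl, 42.9% are shared with Dvl2 on the opposite strand. Whether strand was used is unknown, so reads of the pair may not have been told apart. Dvl2 itself had 43.0 ± 0.80 CPM (SD, n = 3) in DMSO and 63.8 CPM with rotenone, far below Acadvl.

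All 5 other members of the dehydrogenase family in the list fell, where 28.5% of all genes were called lower, and their median was -0.77. Acadsb and Acad8 act in the breakdown of isoleucine and valine, Acad11 on 4-hydroxy and long-chain acyl groups, and Acad10 and Acad12 are less well described. Acad12 stood at 27.1, 25.8 and 24.0 CPM in DMSO and at 10.2 CPM with rotenone, a log2 fold change of -1.33 ± 0.15 (adjusted p = 2.9e-07), which is 2.51-fold lower. It was the only one of the 5 still called with the 20% coefficient of variation. Acad10 stood at 35.0, 35.8 and 38.0 CPM in DMSO and at 20.2 CPM with rotenone, a log2 fold change of -0.84 ± 0.12. Acad10 (chr5:121621026-121660514) and Acad12 (chr5:121596775-121618938) are neighbours on the same strand of chromosome 5, and both had rotenone values well under every control.

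Acad11 stood at 99.4, 93.8 and 97.1 CPM in DMSO and at 56.8 CPM with rotenone, a log2 fold change of -0.77 ± 0.08. Acadsb stood at 55.4, 50.8 and 54.4 CPM in DMSO and at 36.4 CPM with rotenone, a log2 fold change of -0.56 ± 0.10, or -0.27 after the length and GC correction. Acad8 had the closest controls of the list, at 40.0, 39.5 and 39.8 CPM, and fell by 0.34 ± 0.10 to 31.4 CPM. In all 3 the rotenone library lay outside the controls, by the least in Acad8.

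Of the 6 genes for hydration, the second oxidation and thiolysis, 3 rose and 2 fell, with a median of 0.16. That median was 0.04 with library size scaling, where 1 of the 6 rose, and turned to -0.04 after the length and GC correction. Hadha and Hadhb encode the alpha and beta subunits of the mitochondrial trifunctional protein, a complex that carries out these steps on long chains. Hadhb, the thiolase subunit, stood at 1476, 1279 and 1243 CPM in DMSO and at 564 CPM with rotenone, a log2 fold change of -1.24 ± 0.09 (adjusted p = 1.53e-08), which is 2.36-fold lower. Hadha, the hydratase and dehydrogenase subunit, stood at 1087, 989 and 974 CPM in DMSO and at 788 CPM with rotenone. It fell by 0.37 ± 0.07 (adjusted p = 0.00021) or 1.29-fold, a call that was lost with the 20% coefficient of variation.

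Both subunits were therefore below all controls, but by different amounts. The count ratio of Hadhb to Hadha was 1.36, 1.29 and 1.28 in DMSO and 0.716 with rotenone, a shift of -0.87 on the log2 scale. DMSO libraries held more Hadhb than Hadha reads, and the rotenone library held fewer. The 85-base stretch printed above lies between the starts of both genes. A Hadhb pseudogene is annotated by RefSeq. The symbol Hadhb-ps was not among the genes counted, so it was not analysed here. How reads matching both copies were treated is uncertain.

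The other genes for hydration, the second oxidation and thiolysis were not called lower. Echs1, the short-chain hydratase, stood at 428, 426 and 421 CPM in DMSO and at 502 CPM with rotenone, a rise of 0.24 ± 0.06. The call of Echs1 was lost with library size scaling and with the 20% coefficient of variation. Hadh, the short-chain hydroxyacyl-CoA dehydrogenase, stood at 607, 576 and 548 CPM in DMSO and at 658 CPM with rotenone, a rise of 0.19 ± 0.07 (adjusted p = 0.0229). That call was lost without DMSO replicate 3 (adjusted p = 0.0901 by edgeR) and with upper quartile scaling (adjusted p = 0.0763) or library size scaling.

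Hsd17b10, a dehydrogenase of branched and short chains that is also part of mitochondrial RNase P, stood at 123, 127 and 121 CPM in DMSO and at 152 CPM with rotenone, a rise of 0.30 ± 0.07. Acaa2, the medium-chain thiolase, had 852, 796 and 761 CPM in DMSO and 876 CPM with rotenone and gave 0.13 ± 0.07. It was above all controls by a small margin and passed as higher only without DMSO replicate 1, of the alternatives run.

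Unsaturated fatty acids need auxiliary enzymes, of which 2 were in the list and 1 rose. Eci1, which shifts double bonds into the position the hydratase needs, stood at 257, 245 and 233 CPM in DMSO and at 314 CPM with rotenone, a rise of 0.36 ± 0.07 (adjusted p = 0.000182). Decr1, the 2,4-dienoyl-CoA reductase, had 313, 299 and 283 CPM in DMSO and 275 CPM with rotenone and did not pass (-0.12 ± 0.07). With library size scaling Decr1 was called lower (-0.24).

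Among the acyl-CoA synthetases and Mlycd, none rose, 2 of 4 fell and the median was -0.28. Mlycd, which removes malonyl-CoA and so relieves the inhibition of CPT1, stood at 54.0, 49.2 and 49.3 CPM in DMSO and at 39.5 CPM with rotenone, a log2 fold change of -0.36 ± 0.10 (adjusted p = 0.00393). Acss1, the mitochondrial acetyl-CoA synthetase, had 78, 64 and 43 counts in DMSO and 9 with rotenone. As levels these were 2.17 CPM over the DMSO libraries (95% exact Poisson interval 1.87 to 2.51, counting error only) and 0.443 CPM (0.203 to 0.842), and the fitted log2 fold change was -2.27 ± 0.56. The intervals did not overlap, but the size of this change is poorly fixed.

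Acsf2 had 123, 126 and 125 CPM in DMSO and 114 CPM with rotenone, and Acsf3, the malonyl-CoA synthetase, had 63.2, 63.3 and 62.0 CPM and 54.9 CPM. Both were below the controls without passing the test (adjusted p = 0.141 and 0.0563). Both were called lower with library size scaling, and Acsf3 also with upper quartile scaling and with a filter at 1 CPM.

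Ketone bodies are used through Bdh1, Oxct1 and Acat1, of which 1 rose and none fell (median 0.20). That median is the value of Oxct1 and lies there only because Bdh1, with few counts, lies above it. Nothing is read from it. Oxct1, the rate-limiting transferase that activates acetoacetate, stood at 266, 234 and 241 CPM in DMSO and at 283 CPM with rotenone, a rise of 0.20 ± 0.07 (adjusted p = 0.0287). The rise was small, and its call was lost without DMSO replicate 2 or 3 (largest adjusted p = 0.0802 by edgeR) and with library size or upper quartile scaling. Acat1, the acetoacetyl-CoA thiolase, had 433, 390 and 378 CPM in DMSO and 372 CPM with rotenone and gave -0.11 ± 0.08. With library size scaling Acat1 was called lower (-0.23), none of the ketone genes was called higher, and their median was 0.08, again the value of Oxct1.

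Bdh1, the dehydrogenase of beta-hydroxybutyrate, was nearly absent, with 4, 5 and 1 counts in DMSO and 11 with rotenone. These are 0.117 CPM (95% exact Poisson interval 0.0563 to 0.216) and 0.542 CPM (0.271 to 0.97). It passed the filter on low counts only through the rotenone library and did not pass the test (adjusted p = 0.108), although it was called higher with the 20% coefficient of variation. Transcripts of Oxct1 and Acat1 were thus present in every library, and those of Bdh1 hardly at all.

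**Figure D4:**
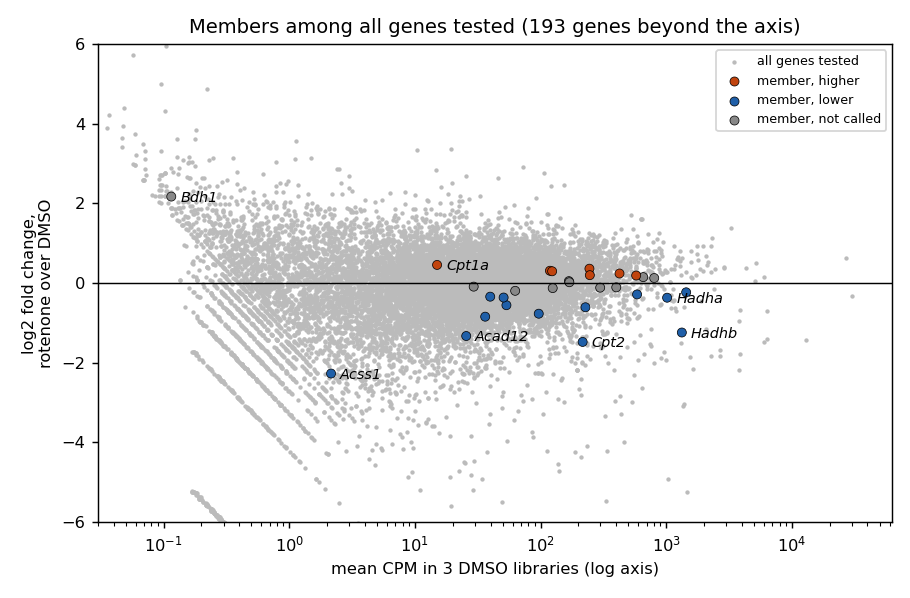
Log2 fold change (y axis) against mean DMSO level (x axis, CPM, log axis) for all 14709 genes tested in grey and the 30 genes in colour; 193 genes lie beyond the y axis. Most of the list sits at high levels and near 0, and Cpt2 and Hadhb stand below the others of their level.

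Levels of different genes were compared per kilobase of the longest annotated protein-coding transcript. In DMSO the order began with Acadvl at 665 ± 34.6 CPM per kb (SD, n = 3), Hadhb at 651 ± 61.3 and Acaa2 at 530 ± 30.3. Acadvl and Hadhb did not differ beyond their spread. With rotenone the order began with Acaa2 at 578 CPM per kb, Acadvl at 566 and Acadl at 380, and Hadhb stood at 275. Transcripts in use may be shorter than the longest annotated one, as may be the case for Hadha with 4017 bases.

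Transcript length moved with the fold changes. Over all genes the median log2 fold change went from 0.25 in the shortest of 10 length classes to -0.28 in the longest. Across the 30 genes the Spearman correlation of log2 fold change with length was -0.45, beside -0.17 over all genes with a length; the genes share 4 libraries and are not independent. Several of the genes that rose are short: the longest coding transcript has 992 bases for Hsd17b10, 1137 for Eci1, 1557 for Echs1 and 1789 for Hadh. After the length and GC correction, Hsd17b10 gave -0.02, Eci1 0.09, Echs1 0.09 and Hadh 0.04. By the same measure Slc25a20 gave 0.23, Oxct1 0.21 and Cpt1a 0.57. Acadl, Acads and Acaa2, none of them called, turned to -0.02, -0.11 and -0.07. All 13 called falls kept their sign, and by the same measure Cpt2 gave -1.51, Hadhb -1.41 and Acad12 -1.20. Some of these falls became smaller: Acadsb went from -0.56 to -0.27, Hadha from -0.37 to -0.25 and Crat from -0.61 to -0.48.

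**Figure D5:**
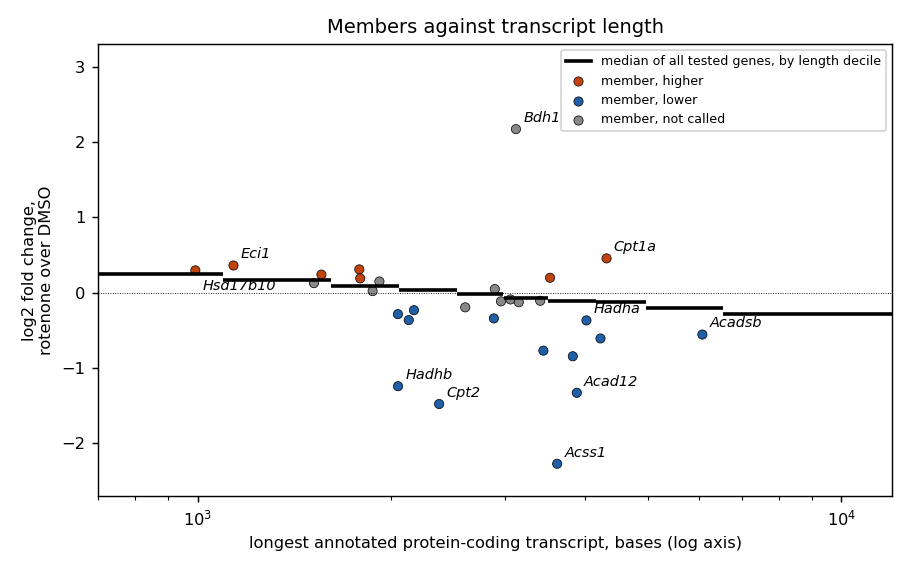
Log2 fold change (y axis) of the 30 genes against transcript length (x axis, bases, log axis), with black bars for the median of all genes in each length decile. Hsd17b10 and Eci1 sit near the bars of their length, and Cpt2, Hadhb, Acad12 and Acss1 lie more than 1 below theirs.

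Genes that feed or control the pathway were taken from fixed lists. The shares over all genes tested, to be read beside each count, were 27.6% called higher and 28.5% lower. Some calls of genes named from these lists were lost with the 20% coefficient of variation. They were those of Acsl3, Acot2, Aldh9a1, Acacb, Mcat, Acat2, Mmab, Suclg2 and Pparg. Of 14 measured genes of electron transfer and acyl-CoA supply, 5 rose and 2 fell, with a median of 0.10. The sign of that median changed under library size scaling (-0.02) and after the length and GC correction (-0.03). Acsl5 and Acsl3, which activate long-chain fatty acids, rose by 0.97 ± 0.09 and 0.51 ± 0.08, and Acot2, a mitochondrial thioesterase, rose by 0.48 ± 0.06. Etfdh, which passes electrons from the acyl-CoA dehydrogenases to ubiquinone, had 210, 179 and 172 CPM in DMSO and 178 CPM with rotenone and gave -0.07 ± 0.09. Of 4 measured genes of carnitine synthesis and entry, 1 fell and none rose (median -0.42); it was Aldh9a1, at -0.80 ± 0.07.

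Of 11 genes of malonyl-CoA and its control, 1 rose and 5 fell (median -0.15). The AMPK subunits Prkab2 and Prkag2 fell, with log2 fold changes of -1.74 ± 0.13 and -1.41 ± 0.10, and Mcat, of mitochondrial fatty acid synthesis, fell by 0.68 ± 0.10. Acacb, which makes the malonyl-CoA that restrains CPT1, stood at 471, 450 and 439 CPM in DMSO and at 301 CPM with rotenone, a log2 fold change of -0.59 ± 0.07. Transcripts of Acacb, for making malonyl-CoA, and of Mlycd, for removing it, were thus both lower. Neither call held with the 20% coefficient of variation. Of 6 measured genes of ketone synthesis and transport, 3 fell and none rose (median -0.59), namely Bdh2 at -1.70 ± 0.44, the cytosolic synthetase Aacs at -0.94 ± 0.07 and Acat2 at -0.54 ± 0.07.

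Of 9 genes of propionyl-CoA use, 2 rose and 4 fell (median 0.02, and -0.10 both with library size scaling and after the length and GC correction). Pcca and Mmab fell, with log2 fold changes of -0.90 ± 0.08 and -0.89 ± 0.10, and Suclg2 rose by 0.40 ± 0.07. Of 14 genes of peroxisomal beta-oxidation, the parallel route for very long chains, 9 fell and none rose (median -0.37). Among them were Ehhadh at -2.36 ± 0.17 and Abcd2 at -1.78 ± 0.32. With the 20% coefficient of variation, 3 of the 14 were called lower, where 14.0% of all genes were.

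Of 19 measured transcriptional regulators, 4 rose and 8 fell (median -0.08, which turned to 0.13 after the length and GC correction). Ppara, the PPAR receptor most tied to fatty acid oxidation, fell from 181, 171 and 165 CPM to 62.5 CPM, by 1.46 ± 0.08. Ppargc1b, a coactivator of mitochondrial genes, fell by 1.51 ± 0.08 and Perm1, a muscle-type regulator, rose by 1.04 ± 0.20. Ppargc1a had 48.4, 49.2 and 52.2 CPM in DMSO and 47.3 CPM with rotenone and gave -0.08 ± 0.09, and Pparg fell by 0.65 ± 0.07. Of 15 measured PPAR targets outside the list, 2 rose and 5 fell (median -0.06), with Ucp3 at -3.58 ± 0.51, Angptl4 at -2.63 ± 0.08 and Fgf21 at 2.87 ± 0.21.

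Library totals ran from 21611589 counts with rotenone to 29194179 in DMSO replicate 1, so that a count of 0 allowed up to 0.103 to 0.139 CPM before TMM scaling (3 counts, counting error only). Brown and general adipocyte markers were present: all 10 were tested, 7 fell and 1 rose. Their median log2 fold change was -0.54, and the lowest value was -2.13. With the 20% coefficient of variation, 3 of the 10 were called lower and none higher, where 14.0% and 9.57% of all genes were. Their summed level was 8763 to 9809 CPM in DMSO and 8283 CPM with rotenone. Preadipocyte and fibroblast genes, 14 of them tested, were mostly higher (10 rose, 1 fell), where 27.6% of all genes were called higher and 28.5% lower. The preadipocyte and fibroblast genes summed to 2842 to 3139 CPM in DMSO and 8234 CPM with rotenone. The part of this shift in the changes of the fatty acid oxidation genes was not tested, and fewer fat cells and less RNA per fat cell cannot be told apart in bulk RNA. Skeletal muscle markers summed to 51.7 to 55.0 CPM in DMSO and 49.2 CPM with rotenone over 3 tested genes, of which 1 rose and 2 fell, and Myh1, Myh2, Myh4 and Myod1 had 0 counts. The 1 that rose was Acta1, skeletal muscle actin, named after its values were seen, at 0.304, 0.138 and 0.225 CPM in DMSO and 6.65 CPM with rotenone. Like Bdh1, Acta1 passed the filter on low counts only through the rotenone library, so that nothing is read from its call. Most of the sum was Des, at 49.7, 50.9 and 52.0 CPM in DMSO and 41.7 CPM with rotenone. Macrophage markers were represented by 1 tested gene (2.23 to 3.43 CPM, then 15.5 CPM), with Adgre1 and Ptprc at 0, and endothelial markers by 3 (6.44 to 7.45 CPM, then 12.6 CPM), with Tie1 at 0. Hepatocyte markers over 3 tested genes summed to 4.63, 0.346 and 0 CPM in DMSO replicates 1 to 3 and to 0 with rotenone, and their part in the higher levels of DMSO replicate 1 was not tested.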

How the data were processed

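Libraries were made from Trizol-extracted total RNA with a NEBNext Ultra kit, per the labels' protocols. The deposited files hold whole-number read counts per gene symbol, not normalized. Per the submitters' processing notes, TopHat2 and mm10 were used. The counting program, the annotation and the strand setting were not given in the sources used here. The labels call the replicates independent; nothing says they were separate cultures, so the spread behind the p-values may be technical only.

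Genes were filtered with filterByExpr, scaled by TMM and tested with robust quasi-likelihood in edgeR 4.0.16 (R 4.3.3, limma 3.58.1, DESeq2 1.42.0), with 2 residual degrees of freedom and Benjamini-Hochberg adjustment over 14709 genes at 0.05. The SE is the log2 fold change divided by the square root of F. All 30 members passed the filter. Of each related list, the up to 3 largest changes past the threshold are named, with Ppara, Ppargc1a, Pparg, Etfdh and Acacb; a few genes that this rule names are not reported here. Gm44502, Dvl2, Acta1 and Des were named after their values were seen. The members and lists were chosen with earlier results of these data known. Length and GC content came from GENCODE M21 transcripts for 14216 genes, in 8 by 8 bins. Alternatives were other scalings, filters and tests, each DMSO library left out, an assumed coefficient of variation of 20% and Rn45s left out.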

Additional observations from a re-analysis of the deposited data

How the results depend on the processing

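All 20 calls on the list were kept with limma-voom, a non-robust prior, no filter, a filter at 1 CPM, median-ratio scaling, DESeq2 and without Rn45s. With a 20% coefficient of variation 1408 genes were called higher and 2063 lower, and 1 and 4 of the list; Cpt2, Acad12, Hadhb and Acss1 kept their calls and Bdh1 gained one. With library size scaling 3 of the list were higher and 17 lower, and the median was -0.24. Decr1, Acsf2, Acsf3 and Acat1 gained calls as lower there. Without each DMSO library in turn, 5 to 9 of the list were higher, 13 lower in each case, and the median ran from -0.16 to -0.10; over all genes 3977 to 4173 were higher and 4076 to 4193 lower. The sign of Acads turned with upper quartile scaling (-0.0227), library size scaling (-0.0997) and without DMSO replicate 3, with a range of -0.0041 to 0.0606 as each DMSO library was left out. That of Cpt1b turned with library size scaling (-0.072) and without DMSO replicate 3, with a range of -0.0127 to 0.1141; neither was called. With the length and GC correction, which gives no test, 4 of the list turned: Hsd17b10 (called higher) to -0.0181, Acadl to -0.0169, Acads to -0.1143 and Acaa2 to -0.0701. The cause of these shifts was not tested. No paired analysis was possible because the rotenone files are 1 library. With few counts, depth limits Bdh1 and Acss1.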
